A study of Mus musculus with 12 samples.

Results

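Adipocytes store triglyceride and secrete hormones, and the genes followed here are 10 that mark them: Adipoq, Lep, Retn and Cfd (secreted), Fabp4, Car3, Cidec, Plin1 and Plin4 (lipid handling and the cytosol) and Pparg (the transcription factor). They were taken by gene symbol from the platform's probe gene table, with every probe set kept and no filter on low values. Of these 10, 8 had probe sets, 14 in all out of 34945 that carry a single symbol, and no probe set bore the symbol of Cfd or Plin1, which were not analysed here. Each gene is followed by its lead probe set, the one with the highest mean, and 4 of the 8 lead probe sets had a mean log2 value of at least 5.

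Thymus was dissected from mice aged 7 to 8 weeks, and its RNA was hybridized to 12 one-colour Affymetrix arrays, 1 per sample, with 3 biological replicates in each of 4 groups. XXsry mice are labelled male and carry sry beside an XX complement, and XX mice are labelled female. XY-sry mice are labelled male and XY- mice female, and both have a Y chromosome written with a minus sign. These names match a known mouse cross in which that Y has lost Sry and a transgene supplies it. The strain and the alleles are not given in the sources used here, and the labels record no drug or diet. All values below are log2 RMA values, so a difference of 1 is a doubling of signal, and probe sets are compared with themselves between arrays and not with each other.

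White adipocytes hold 1 large lipid droplet coated by perilipins, and brown adipocytes hold many small droplets and make heat through the uncoupling protein Ucp1. PPAR-gamma, the product of Pparg, drives the adipocyte programme together with C/EBP factors. Fat, which in mice includes brown fat, lies next to the thymus in the chest and gradually takes the place of thymic tissue as mice age. In bulk tissue, fewer adipocytes and less RNA per adipocyte cannot be told apart.

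The labels held on the arrays: Xist, the RNA of the inactive X, lay between 11.10 and 11.63 in the 6 XXsry and XX arrays and between 3.41 and 4.19 in the 6 XY-sry and XY- arrays. Sry, by its brighter probe set, lay between 6.74 and 7.20 in the arrays labelled with it and between 5.23 and 5.65 in the others. All 7 measured thymocyte markers, such as Rag1 and Dntt of antigen receptor assembly (means 11.85 and 11.64), had a mean of at least 5, and their summed log2 values lay between 70.85 and 71.71. The array medians lay between 4.02 and 4.10, and the gap between the control probe sets at the 2 ends of actin mRNA (3' minus 5'), which tracks RNA integrity, between 0.51 and 0.83. Probe sets of Y-linked genes in the 6 arrays without a Y chromosome show what signal remains with no template: 9 probe sets read between 1.77 and 3.22, a rough guide since each probe set has its own background. The number of arrays limits the precision, and no sample was left out or imputed.

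Promoter sequence is shown for the members whose signal moved together between arrays (below) and that have an entry, Adipoq, Cidec and Plin4, and for Ucp1, which was high in 1 array. Fabp4 and Car3 are named only. Each line is the 250 bases before an annotated start from RefSeq (GRCm38.p6), read 5′ to 3′ on the gene's strand. Capitals mark matches on either strand to 4 motifs. The element bound by many nuclear receptors was searched as AGGTCA. The TATA box of core promoters was searched as TATAAA. The promoter box bound by NF-Y was searched as CCAAT, and the core of a C/EBP site as TTGCNNAA. Adipoq lies on the plus strand at chr16:23146286-23146535, and Plin4 on the minus strand at chr17:56109783-56110032. Cidec is on the minus strand with 2 starts, at chr6:113435761-113436010 and chr6:113434765-113435014, and Ucp1 on the plus strand at chr8:83290098-83290347.
Adipoq: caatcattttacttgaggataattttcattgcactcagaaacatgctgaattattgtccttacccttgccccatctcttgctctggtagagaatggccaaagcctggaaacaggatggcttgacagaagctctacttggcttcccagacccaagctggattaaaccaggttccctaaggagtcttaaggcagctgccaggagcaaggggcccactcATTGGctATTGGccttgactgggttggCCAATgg
Cidec start 1: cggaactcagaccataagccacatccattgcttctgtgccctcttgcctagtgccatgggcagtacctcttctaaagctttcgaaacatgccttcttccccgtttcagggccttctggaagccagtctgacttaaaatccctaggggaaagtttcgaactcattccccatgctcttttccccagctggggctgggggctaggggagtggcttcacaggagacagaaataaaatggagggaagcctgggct
Cidec start 2: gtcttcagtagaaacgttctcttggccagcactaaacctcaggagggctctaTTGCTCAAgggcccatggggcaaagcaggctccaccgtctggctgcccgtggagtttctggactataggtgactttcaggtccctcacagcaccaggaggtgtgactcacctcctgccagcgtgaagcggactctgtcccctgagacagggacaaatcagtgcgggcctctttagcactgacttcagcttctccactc
Plin4: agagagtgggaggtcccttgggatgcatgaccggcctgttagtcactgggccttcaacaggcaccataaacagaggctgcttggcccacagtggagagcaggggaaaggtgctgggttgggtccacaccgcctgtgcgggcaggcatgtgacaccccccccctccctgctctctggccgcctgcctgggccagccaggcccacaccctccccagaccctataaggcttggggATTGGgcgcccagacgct
Ucp1: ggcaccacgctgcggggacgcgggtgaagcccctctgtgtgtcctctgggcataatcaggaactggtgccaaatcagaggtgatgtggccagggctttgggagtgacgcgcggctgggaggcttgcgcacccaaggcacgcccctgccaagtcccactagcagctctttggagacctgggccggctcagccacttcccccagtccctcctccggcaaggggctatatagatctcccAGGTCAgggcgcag
The Adipoq window held 3 CCAAT matches and that of Plin4 held 1; the first Cidec window held no match and the second held 1 to the C/EBP core, and Ucp1 had 1 nuclear receptor element. Among 32851 windows of this length, 33.8% held CCAAT, 14.0% the nuclear receptor element, 12.4% TATAAA and 9.56% the C/EBP core, and the motifs did not overlap in the windows shown. These matches are letters in a window and not binding sites.

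Car3, which encodes the carbonic anhydrase abundant in adipocyte cytosol and also present in muscle, differed most of the 8 between individual mice. It read 5.38, 9.64 and 7.31 in XXsry thymus and 8.16, 7.70 and 7.23 in XX thymus (replicates 1, 2 and 3). In XY-sry thymus it read 7.48, 7.62 and 6.31, against 8.39, 7.75 and 6.83 in XY- thymus. The highest and the lowest of all 12 arrays were thus mice of a single group, XXsry replicates 2 and 1, and they stood 4.26 log2 units or 19.2-fold apart. Without XXsry replicate 2 the range over the other 11 arrays was 3.01, or 8.06-fold. A second Car3 probe set, with a mean of 5.64, had the same arrays at its extremes, 4.55 in XXsry replicate 1 and 7.51 in XXsry replicate 2, and followed the first with r = 0.961 over 12 arrays. Its other 2 probe sets stayed between 2.10 and 3.01.

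Adipoq, which encodes the hormone adiponectin, made almost only by adipocytes, had the same arrays at its extremes. It read 3.68, 6.96 and 4.68 in XXsry thymus and 5.73, 5.48 and 4.79 in XX thymus. In XY-sry thymus it read 4.47, 4.95 and 4.02, against 6.14, 5.27 and 5.07 in XY- thymus. XXsry replicate 2 was again the highest array and XXsry replicate 1 the lowest, 9.71-fold apart, and without XXsry replicate 2 the range was 5.50-fold. The array median of 4.05 and the actin gap of 0.76 in XXsry replicate 2 lay within the ranges of the other arrays. Every XY-sry value of Adipoq lay below every XY- value, as for 8.00% of all probe sets, whereas the XXsry values lay on both sides of the XX values.

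**Figure D1:**
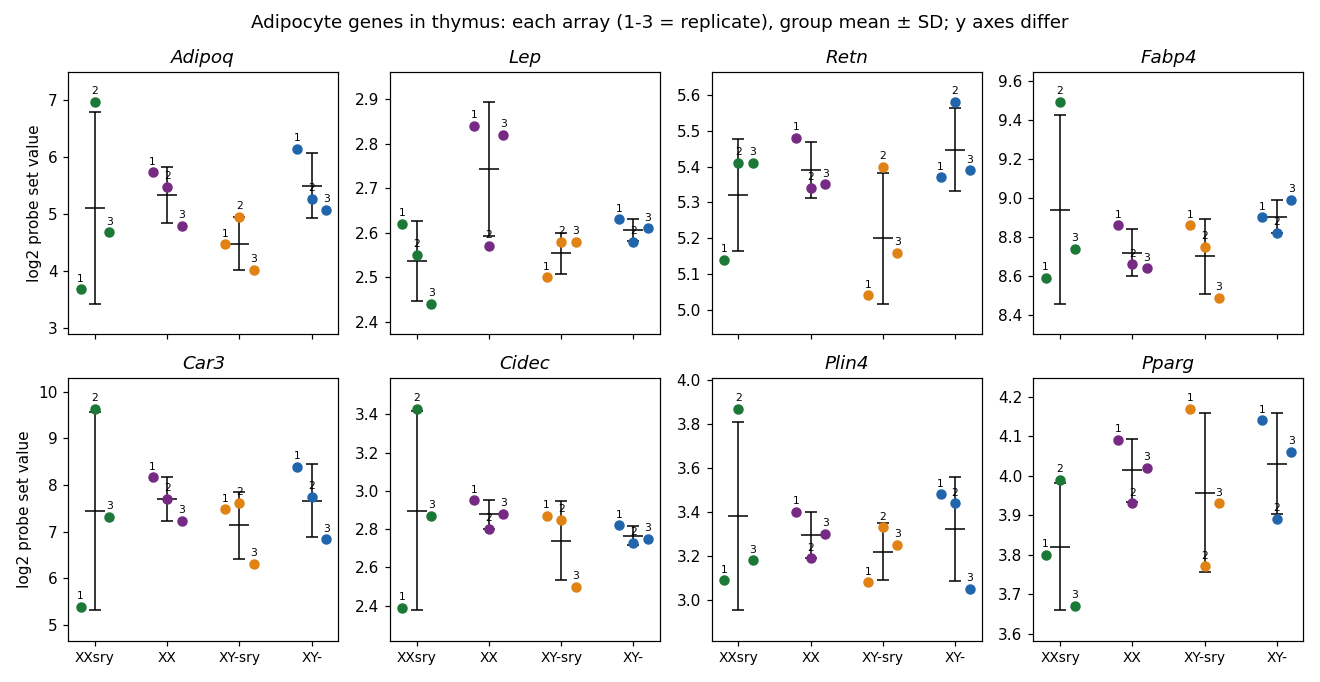
Log2 probe set value (y axis, scaled for each gene) of the 8 measured adipocyte genes in XXsry, XX, XY-sry and XY- thymus; points are arrays numbered by replicate, and bars are the group mean ± SD (n = 3). XXsry replicate 2 is the highest array for Adipoq, Fabp4, Car3, Cidec and Plin4, and XXsry replicate 1 the lowest for Adipoq, Car3 and Cidec.

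Fabp4, a fatty acid carrier of adipocytes that endothelial cells and macrophages also make, moved less. It read 8.59, 9.49 and 8.74 in XXsry thymus and 8.86, 8.66 and 8.64 in XX thymus. In XY-sry thymus it read 8.86, 8.75 and 8.49, against 8.90, 8.82 and 8.99 in XY- thymus. XXsry replicate 2 was the highest in each of its 4 probe sets, and apart from it the lead probe set spanned 0.50. Its second probe set, with a mean of 7.16, followed the first with r = 0.960 over 12 arrays, and with r = 0.887 without XXsry replicate 2.

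The lipid droplet proteins gave low signals. Cidec, which helps droplets fuse into large ones, read 2.39, 3.43 and 2.87 in XXsry thymus and 2.95, 2.80 and 2.88 in XX thymus. In XY-sry thymus it read 2.87, 2.85 and 2.50, against 2.82, 2.73 and 2.75 in XY- thymus, so that all but 1 of the 12 values lay within the range of the Y-linked probe sets in arrays without a Y. Plin4, a perilipin of nascent droplets, read 3.09, 3.87 and 3.18 in XXsry thymus and 3.40, 3.19 and 3.30 in XX thymus. It read 3.08, 3.33 and 3.25 in XY-sry thymus, against 3.48, 3.44 and 3.05 in XY- thymus. Low as these signals were, XXsry replicate 2 was the highest for both genes.

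For the other hormones and the transcription factor XXsry replicate 2 was not the highest array. Lep, for leptin, the satiety hormone of white fat, lay between 2.44 and 2.84, and each of its 12 values lay within the range of the Y-linked probe sets. Retn, for resistin, a hormone of mouse white adipocytes, lay between 5.04 and 5.58, with its highest value in XY- replicate 2. Pparg lay between 3.67 and 4.17, with its highest value in XY-sry replicate 1. Neither Lep, Retn nor Pparg spanned more than 0.54 over the 12 arrays.

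Counted over the 8 genes, XXsry replicate 2 was the highest array for 5, where 7.37% of all 45037 probe sets had their highest value there. Most of this spread lay between replicates of a group. The within-group SD was 1.214 for Car3 and 0.949 for Adipoq, which ranked 4 and 6 from the top among all probe sets. For Cidec, Fabp4 and Plin4 it was 0.284, 0.270 and 0.258, at percentiles 98.36, 97.96 and 97.55 of all probe sets. For Pparg, Retn and Lep it was 0.149, 0.139 and 0.092, at percentiles 74.92, 68.48 and 28.62. Much of the spread of Fabp4 came from 1 array: without XXsry replicate 2 its percentile was 65.15, and that of Cidec was 85.87. Car3 and Adipoq had a percentile of at least 99.85 with any single array left out.

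**Figure D2:**
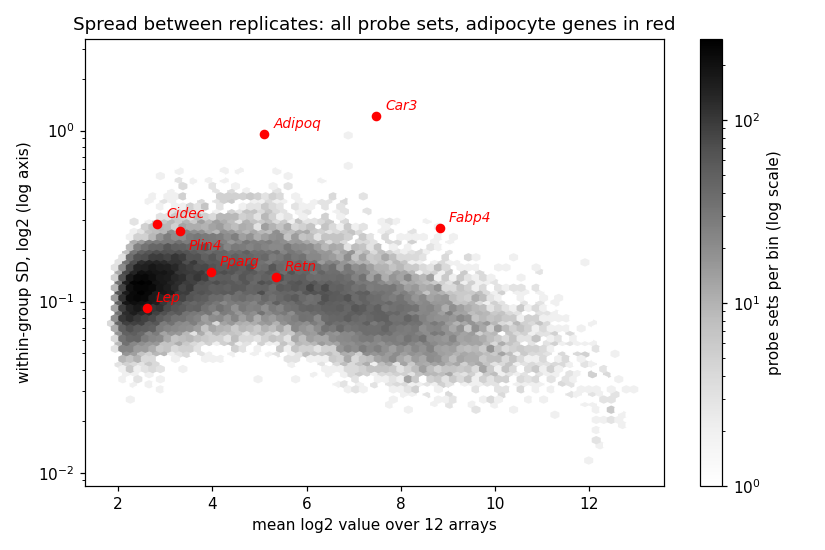
Within-group SD of the log2 value (y axis, log scale) against the mean log2 value over 12 arrays (x axis) for all 45037 probe sets, with shading for the number of probe sets and the 8 adipocyte genes as red points. Car3 and Adipoq lie above nearly all probe sets of their level, while Lep, Retn and Pparg lie within the main cloud.

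The genes with the widest spread varied together. Over the 12 arrays, Car3 and Adipoq had a Pearson correlation of 0.940, which was 0.897 without XXsry replicate 2 and 0.967 after each group's mean was removed. Car3 and Cidec had 0.911, and 0.850 without that array. Adipoq and Fabp4 had 0.806, and 0.632 without it, and Fabp4 and Plin4 had 0.685, and 0.106 without it. Lep had correlations with the other 7 genes between -0.13 and 0.40, and Pparg between -0.17 and 0.40. Retn lay between these sets: it had 0.603 with Adipoq, and 0.673 without XXsry replicate 2, 0.522 with Car3, and 0.498 with Plin4, and 0.622 without that array. These correlations describe 12 arrays normalized together and carry no test.

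**Figure D3:**
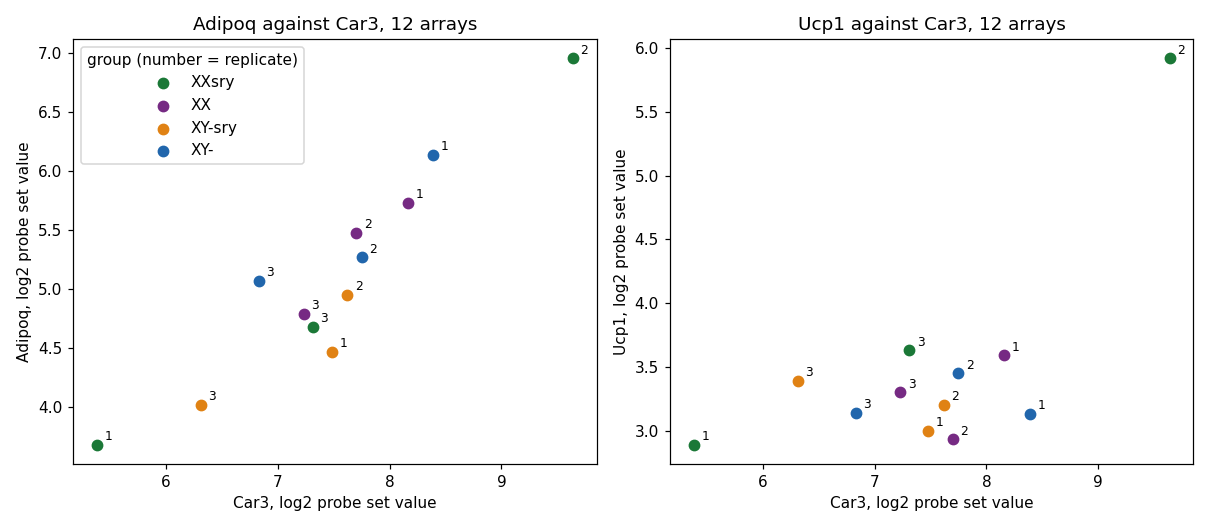
Adipoq (left) and Ucp1 (right) against Car3, each as the log2 probe set value of 12 arrays, coloured by group and numbered by replicate. Adipoq is generally higher where Car3 is higher, whereas Ucp1 is high, at 5.92, in XXsry replicate 2 and lies between 2.89 and 3.63 in the other 11.

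No adipocyte gene passed the test between groups, although the wide spread leaves large differences within the intervals. For Sry, the comparison was XXsry and XY-sry against XX and XY- (6 arrays on each side). Adipoq averaged 5.11 ± 1.681 in XXsry and 5.33 ± 0.487 in XX thymus, and 4.48 ± 0.465 in XY-sry and 5.49 ± 0.569 in XY- thymus (SD, n = 3 each). Its difference with Sry was -0.62 ± 0.431 (standard error; limma adjusted p = 0.556). Car3 averaged 7.44 ± 2.133 in XXsry and 7.70 ± 0.465 in XX thymus, and 7.14 ± 0.719 in XY-sry and 7.66 ± 0.784 in XY- thymus (SD, n = 3 each). Its difference was -0.39 ± 0.551 (limma adjusted p = 0.814). Fabp4 differed by 0.01 ± 0.128, with a 95% interval from -0.27 to 0.28. The other 3 probe sets of Fabp4 gave between -0.02 and 0.24, and the other 3 of Car3 between -0.08 and 0.08, all short of the threshold. In all, 0 of 8 genes passed an adjusted p of 0.05 in limma, where 1.54% of all 45037 probe sets passed, and 1 gene, Lep (-0.13), had an unadjusted p under 0.05, as had 15% of all probe sets. The median over the 8 genes was -0.13, against 0.005 over all probe sets, and was -0.03 without XXsry replicate 1.

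The sex chromosome complement was compared as XX and XXsry against XY- and XY-sry. Here 0 of 8 genes passed (limma), where 0.0577% of all probe sets did, and 0 had an unadjusted p under 0.05, against 4.28% of all probe sets. The differences ran from -0.08 for Pparg to 0.23 for Adipoq, with a median of 0.06 against 0 over all probe sets, and every adjusted p was 0.998. Without XXsry replicate 2 the median was -0.08, and without XXsry replicate 1 it was 0.13. The interaction, which is the Sry difference in XX minus that in XY-, passed for 0 of 8 genes (limma; 0.375% of all probe sets), and 0 of 8 had an unadjusted p under 0.05, against 9.59% of all probe sets. It was 0.79 ± 0.863 for Adipoq and 0.27 ± 1.10 for Car3. Across the 4 groups together, limma's F test passed 0 of 8 genes, where 1.19% of all probe sets passed, and 0 had an unadjusted p under 0.05, against 12.9% of all probe sets.

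**Figure D4:**
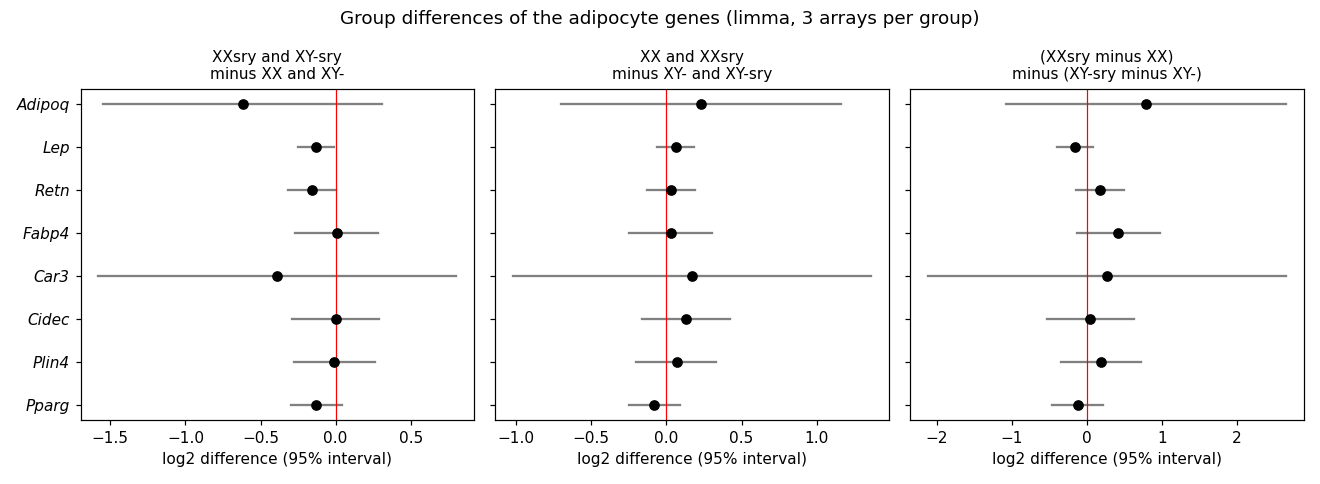
Log2 differences (points) with 95% intervals (lines) of the 8 adipocyte genes for Sry, for the complement and for their interaction, from limma with 3 arrays per group. The intervals of Adipoq and Car3 are the widest in each panel, from -1.55 to 0.31 and from -1.58 to 0.80 for Sry.

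Within a single complement or a single Sry state the same held. XXsry against XX gave 0 of 8 past the threshold (limma; 0.209% of all probe sets), and XY-sry against XY- gave 0 of 8 (2.77% of all probe sets). At an unadjusted p under 0.05 there was 1 gene in each, Lep (-0.21) and Retn (-0.25), beside 8.49% of all probe sets for XXsry against XX and 16.1% for XY-sry against XY-. XX against XY-, and XXsry against XY-sry, each gave 0 of 8 (limma; 0.0533% of all probe sets for both) and 0 genes at an unadjusted p under 0.05, beside 7.86% of all probe sets for XX against XY- and 6.91% for XXsry against XY-sry. The largest difference was that of Adipoq between XY-sry and XY- thymus, -1.01 ± 0.61 (limma adjusted p = 0.462; 95% interval from -2.33 to 0.30). It was the only one of the 8 genes whose groups did not overlap in any of these comparisons, and 8.00% of all probe sets were likewise lower in every XY-sry array than in every XY- array (10.5% were higher). Between XXsry and XX 0 of 8 genes were free of overlap, where 8.15% of all probe sets were higher and 7.39% lower. Between XX and XY- it was also 0 of 8 (6.04% higher and 5.16% lower), as between XXsry and XY-sry (6.04% higher and 5.81% lower). Both XXsry extremes moved other values. In XXsry against XX the second Car3 probe set gave 0.16. Its lead probe set gave -0.25, but 0.78 without XXsry replicate 1 and -1.35 without XXsry replicate 2. For Adipoq the same values were -0.23, 0.49 and -1.15, and with Sry overall its difference of -0.62 was -0.26 without XXsry replicate 1 and -1.08 without XXsry replicate 2 (limma adjusted p = 0.087 without replicate 2).

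The array that stood highest for Car3 and Adipoq was also highest for several brown fat transcripts. Ucp1, the uncoupling protein, read 5.92 in XXsry replicate 2 and between 2.89 and 3.63 in the other 11 arrays, and 2.89 and 3.63 were those of XXsry replicates 1 and 3. Cidea, a droplet protein of brown adipocytes, read 6.19 there and between 3.34 and 4.20 elsewhere. Cox8b, a respiratory chain subunit of brown fat and muscle, read 5.76 there and between 4.10 and 4.63 elsewhere. The arrays next highest for Car3 and Adipoq had no such Ucp1 signal, which read 3.59 in XX replicate 1 and 3.13 in XY- replicate 1. Of the 9 brown adipocyte genes 4 were highest in XXsry replicate 2, Cox7a1 being the fourth, while Dio2 (3.72) and Elovl3 (2.93) lay within the range of the other arrays. Of all 45037 probe sets, 7.37% were highest in that array. The summed log2 level of the 9 was 36.51 in XXsry replicate 2 and between 28.47 and 30.66 in the other 11 arrays. By group it ran from 28.47 to 36.51 in XXsry, from 29.48 to 30.39 in XX, from 28.89 to 29.85 in XY-sry and from 28.81 to 30.66 in XY- thymus. Ucp1 and Cidea are singled out after their values were seen. No brown adipocyte gene passed in any comparison (limma, 0 of 9). Their signals were low: 0 of the 9 had a mean of at least 5, and Elovl3, Ppargc1a and Otop1 had means of 2.99, 2.54 and 2.17. Several Ucp1 values outside XXsry replicate 2 lay within the range of the Y-linked probe sets in arrays without a Y.

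**Figure D5:**
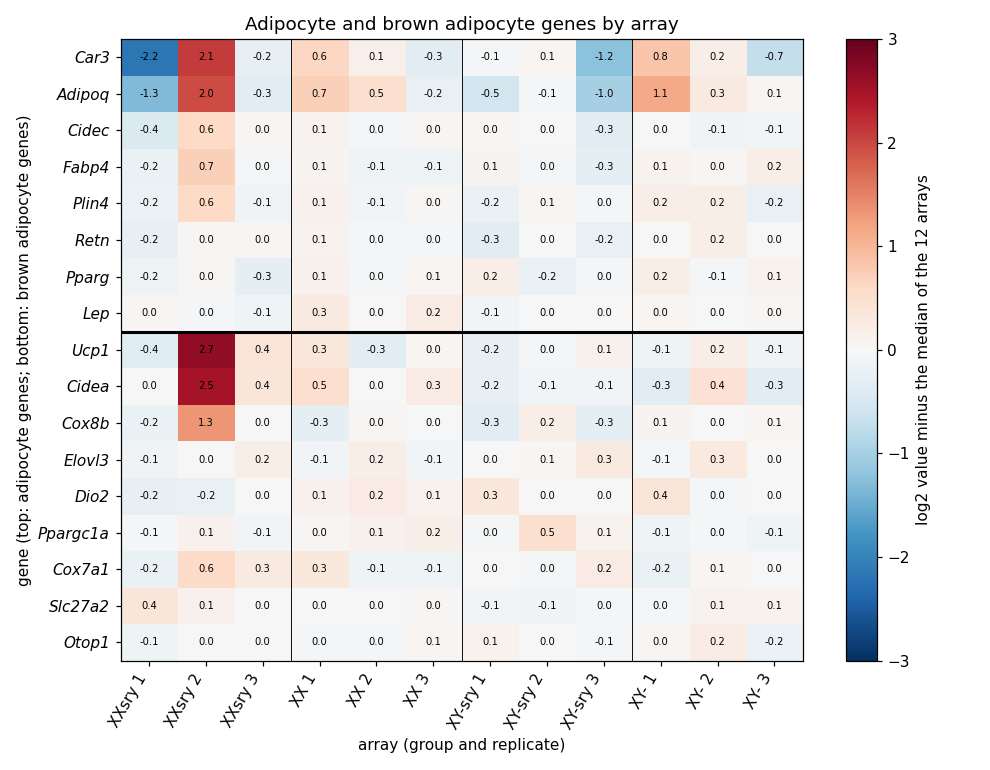
Log2 value minus the gene's median over 12 arrays (colour and printed number) for the 8 adipocyte genes (top rows) and 9 brown adipocyte genes (bottom rows), with 1 column per array, ordered XXsry, XX, XY-sry and XY-. XXsry replicate 2 stands out in Car3, Adipoq, Ucp1, Cidea and Cox8b, and XXsry replicate 1 is low in Car3 and Adipoq.

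Other fat pathways gave at most 1 call per list in a comparison. For comparison, 1.54% of all 45037 probe sets passed for Sry and 2.77% in XY-sry against XY- thymus (limma). Of 14 measured genes for triglyceride synthesis and storage 1 rose with Sry and 0 fell: Acaca, the enzyme that commits acetyl-CoA to fatty acid synthesis, at 0.28 ± 0.0535 (limma adjusted p = 0.0237). In XY-sry against XY- thymus Acaca also passed, at 0.32 ± 0.0756 (limma adjusted p = 0.0438), but in only 1 of 12 fits with an array left out. With Sry overall Acaca did not pass without XXsry replicate 2, XX replicate 2, XX replicate 3 or XY-sry replicate 3 (limma adjusted p up to 0.0665), nor as the mean of its probe sets, at 0.11 (limma adjusted p = 0.302). Of 12 genes for lipolysis and fatty acid uptake 1 rose and 0 fell: Mgll, the monoglyceride lipase, at 0.33 ± 0.0561 (limma adjusted p = 0.0116). Of 14 adipogenic transcription factors 1 rose and 0 fell: Klf15, a glucocorticoid-responsive factor, at 0.36 ± 0.0595 (limma adjusted p = 0.00989). The Sry calls of Mgll and Klf15 were kept in all 12 fits with 1 array left out. With the actin gap of each array in the fit, none of the 3 passed (limma adjusted p = 0.0887 for Acaca, 0.0747 for Mgll and 0.0903 for Klf15). That gap lay between 0.71 and 0.83 in the arrays with Sry and between 0.51 and 0.77 in the others. A fit with both therefore cannot fully separate Sry from the actin gap. The members' mean is the mean of the 8 centred lead probe sets. They were not scaled, so Car3 and Adipoq, with the widest spread, weigh most in it. Against the members' mean, r over 12 arrays was -0.04 for Acaca, -0.15 for Mgll and -0.39 for Klf15. Without XXsry replicate 2 it was -0.584, -0.539 and -0.786.

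Of 7 adipokine receptor genes, which include the adiponectin receptor Adipor2 and the resistin-binding Cap1, 0 passed for Sry, for the complement or for the interaction (limma). Adipor2 and Cap1 had means of 8.26 and 9.48. The summed log2 level of the 7 was lowest, at 44.57, in XXsry replicate 2 and highest, at 45.60, in XXsry replicate 1. It had r = -0.897 with the members' mean over 12 arrays (-0.834 without XXsry replicate 2). Single genes differed: r was 0.186 for Adipor2, 0.08 for Insr, -0.175 for Lepr, -0.242 for Cap1 and -0.349 for Adipor1. The most negative were C3ar1 (-0.67) and Cdh13 (-0.811), with low means of 4.35 and 4.09. The list of 20 other adipocyte genes gave 0 calls for Sry. In XY-sry against XY- thymus, where 2.77% of all probe sets passed, it gave 1, Cideb at -0.27 ± 0.063 (limma adjusted p = 0.0421). That call was lost with any of the 12 arrays left out (limma adjusted p up to 0.154). The medians of the 6 fat lists lay between -0.01 and 0.08 for Sry and between -0.03 and 0.11 for the complement, against 0.005 and 0 over all probe sets. For the complement, for the interaction and in XX against XY- or XXsry against XY-sry, no gene in these lists passed (limma).

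Some genes of the fat lists ran close to the members' mean. Pck1, which supplies glycerol for triglyceride, had r = 0.860 over 12 arrays and 0.873 without XXsry replicate 2, and read 3.94 in that array against 2.42 to 2.92 elsewhere, all within the range of the Y-linked probe sets. Adig, a small adipocyte protein, had r = 0.807 and 0.826, and read between 3.18 and 3.72. Scd1, a fatty acid desaturase, had r = 0.795 and 0.704, and was highest, at 7.19, in XX replicate 1. Of the 14 genes for triglyceride synthesis and storage, 7 were highest in XXsry replicate 2, among them Gpd1 and Dgat2. For comparison, 7.37% of all 45037 probe sets were highest there. The margin could be small: Acaca read 6.80 there and up to 6.77 elsewhere. Pck1, Adig, Gpd1 and Dgat2 are named after their values were seen.

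Among 9492 genes with a mean of at least 5, those outside the members whose pattern over 12 arrays was most like the members' mean were Rps20 (r = 0.857), Slc35b4 (0.836), BC004004 (0.831), Eif3e (0.829), Hibadh (0.802), Scd1 (0.795), Usb1 (0.793), Pank2 (0.780), Tigd5 (0.766) and Gatd3a (0.762). Scd1 ran from 6.32 to 7.19, and Rps20 only from 12.20 to 12.32. Without XXsry replicate 2, only Rps20 and Hibadh were still among the 10 most alike.

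Markers of neighbouring tissue are given for comparison, and their part in the results was not tested. The summed log2 level of 8 skeletal muscle genes lay between 30.18 and 31.27 in XXsry, 30.61 and 30.92 in XX, 30.77 and 32.25 in XY-sry and 30.47 and 30.91 in XY- thymus. This sum had r = 0.143 with the members' mean over 12 arrays. Only 1 of the 8 muscle genes had a mean of at least 5, so the sum rests mainly on low signals. None of the 8 was highest in XXsry replicate 2, as 7.37% of all probe sets were, and Ckm read 4.45 there against 4.21 to 4.60 elsewhere. In XY-sry against XY- thymus 1 of the 8 muscle genes rose, where 2.77% of all probe sets passed: Tnnc2 by 0.40 ± 0.0895 (limma adjusted p = 0.0321). It did not pass without XY-sry replicate 1 or 3 or XY- replicate 2 or 3. Nor did it pass with the actin gap in the fit (limma adjusted p = 0.324) or with only the groups compared. Tnnc2 had a mean of 3.24, and its XY- values, 3.11, 3.02 and 2.88, lay within the range of the Y-linked probe sets in arrays without a Y. Of 8 fibroblast and preadipocyte genes 3 passed for Sry, where 1.54% of all probe sets passed. Dcn rose by 0.40, Pdgfra by 0.42 and Lum by 0.48 (limma adjusted p = 0.013, 0.0446 and 0.0399). The others did not pass: Col3a1 (-0.24), Col1a1 (-0.05), Dlk1 (0.02), Cd34 (0.06) and Pdgfrb (0.10). The median of the 8 was 0.08. The calls of Pdgfra and Lum were each kept in 2 of 12 fits with 1 array left out, and that of Dcn in all 12. Dcn also passed in XXsry against XX thymus (0.62) and Lum in XY-sry against XY- thymus (0.69; limma adjusted p = 0.0277 and 0.0273). That call of Dcn was lost without any 1 of the 6 arrays compared (limma adjusted p up to 0.144) and as the mean of its probe sets (0.133). That of Lum was lost in 5 of the 12 fits with an array left out, each time an array compared, with the actin gap in the fit (limma adjusted p = 0.366) and with only the groups compared. Of 4 measured B cell genes 1 passed for Sry: Ms4a1 fell by 0.59 (limma adjusted p = 0.0329), a call kept in 3 of 12 such fits. Cd79a (-0.16), Cr2 (-0.06) and Fcer2a (-0.25) did not pass. The parathyroid genes Pth and Chga, the 2 measured, rose with Sry, by 1.02 and 0.63 (limma adjusted p = 0.0104 and 0.016). Pth also passed in XXsry against XX thymus, at 1.50 (limma adjusted p = 0.0276). That call was lost in 5 of the 12 fits, each without an array compared (limma adjusted p up to 0.135), and with limma's trend and robust settings (0.0796). For Sry, the calls of Pth and Chga were kept in all 12 fits with 1 array left out. With the actin gap in the fit, which cannot fully separate it from Sry, no fibroblast, parathyroid or B cell gene kept its call for Sry. In XXsry against XX thymus, Dcn and Pth did keep theirs with the actin gap (limma adjusted p = 0.0203 and 0.00631). The macrophage genes Csf1r and Cd68 (means 8.99 and 8.01) gave no call. The summed macrophage level was 22.68 in XXsry replicate 2 and between 22.71 and 24.20 in the other 11 arrays. The actin gap had r = -0.09 with the members' mean over 12 arrays, and -0.267 without XXsry replicate 2.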

How the data were processed

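RNA from 12 mouse thymus samples, 3 in each of 4 groups named by the labels, was measured on 12 arrays. The deposited log2 values were made by RMA, per the submitters' processing notes, with no version given in the sources used here; RMA summarizes the arrays together, so a deposited value is not independent of the other arrays. All 45037 probe sets other than 64 controls were used with no filter on low values. Genes were named by a platform table in which 34945 probe sets carry 1 symbol, 932 several and 9160 none; Cfd and Plin1 are not analysed here.

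limma 3.58.1 (R 4.3.3) fitted 4 group means with 8 residual degrees of freedom and empirical Bayes moderation, and p-values were adjusted by Benjamini-Hochberg over all probe sets, with 0.05 as the threshold. The analysis was tested on simulated data. The members and gene lists were chosen with earlier results of these data known. Genes named are the members, list genes past the threshold (or the 2 with the highest mean), and the 10 most like the members' mean. Alternatives were filters at a mean of 5 and 6, median centring, quantile normalization, limma's trend and array weights, probe set means, a threshold of 0.1, the actin covariate, the replicate block, only the groups compared, and each array left out. Correlations and summed list levels without XXsry replicate 2 were added after seeing the data. Figures used Python 3.11.15 and matplotlib 3.10.9.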

Additional observations from a re-analysis of the deposited data

How the results depend on the processing

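The count of adipocyte genes past the threshold was 0 in each of the 180 alternative counts run, and the lowest adjusted p (limma) was 0.087, for Adipoq with Sry without XXsry replicate 2. Same-numbered replicates had correlated deviations (r over 0.1) in 8 of 18 pairs of samples, with a range from -0.083 to 0.306. Pairs with different numbers were not compared, so these values cannot show whether the replicate number marks a shared batch. The labels name no batch, and the main fit did not take the numbers as pairing. With the replicate number as a replicate block, 0 members passed in each comparison, and the median difference for Sry was -0.13. Of 1194 alternative values of single genes, 64 changed sign, and none passed the threshold. With the actin covariate, the sign turned for Fabp4 with Sry (-0.11) and Pparg in the interaction (0.16), and between XX and XY- for Cidec (-0.01), Retn (0.04) and Car3 (-0.20); between XXsry and XY-sry it turned for Lep (0.02). Median centring gave Cidec 0.01 between XY-sry and XY-, and median centring and quantile normalization each gave Pparg 0.01 between XX and XY-. Array weights gave Car3 -0.17 there. The cause of these changes was not tested.

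Leaving out each array in turn, the values for Sry ran from -0.16 to -0.03 for the median over the genes, -1.08 to -0.26 for Adipoq, -0.13 to 0.10 for Fabp4, -0.94 to 0.13 for Car3 and -0.13 to 0.06 for Plin4. For the complement they ran from -0.08 to 0.13 for the median, -0.23 to 0.59 for Adipoq, -0.11 to 0.12 for Fabp4, -0.01 to 0.08 for Retn, -0.38 to 0.69 for Car3 and -0.06 to 0.14 for Plin4. For the interaction they ran from -0.15 to 0.32 for the median over the genes, -0.14 to 1.50 for Adipoq, -0.22 to 0.30 for Cidec, -0.83 to 1.30 for Car3 and -0.06 to 0.33 for Plin4. Between XXsry and XX they ran from -0.23 to 0.25 for the median, -1.15 to 0.49 for Adipoq, -0.06 to 0.39 for Fabp4, -0.25 to 0.27 for Cidec, -0.11 to 0.02 for Retn, -1.35 to 0.78 for Car3 and -0.16 to 0.23 for Plin4. Between XY-sry and XY- they ran from -0.09 to 0.09 for Cidec and -0.18 to 0.02 for Pparg. Between XX and XY- they ran from -0.11 to 0.09 for the median, -0.37 to 0.16 for Adipoq, -0.09 to 0.04 for Pparg, -0.10 to 0.01 for Retn, -0.37 to 0.41 for Car3 and -0.16 to 0.05 for Plin4. Between XXsry and XY-sry they ran from -0.10 to 0.36 for the median, -0.30 to 1.34 for Adipoq, -0.04 to 0.41 for Fabp4, -0.11 to 0.41 for Cidec, -0.06 to 0.03 for Lep, -0.79 to 1.34 for Car3 and -0.08 to 0.31 for Plin4. The median over the genes was -0.15 for the interaction and -0.10 between XXsry and XY-sry without XXsry replicate 2, and 0.25 between XXsry and XX without XXsry replicate 1. A filter at a mean of 6 left only Fabp4 and Car3, so no median is given there. Signal near background limits Lep, Cidec and Plin4.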

Other observations

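The 34945 probe sets with 1 symbol were ranked by the gap between XXsry replicate 2 and the highest of the other 11 arrays. The widest gaps were those of Ucp1 (2.29 log2 units), Cidea (1.99) and Car3 (1.25). Several Ucp1 values in the other arrays lay within the range of Y-linked probe sets in arrays without a Y, so no fold is given. Pdk4, a kinase that slows glucose oxidation, read 3.98 in XXsry replicate 2 and 2.37 to 2.84 elsewhere, where its values lay within the range of Y-linked probe sets in arrays without a Y, so no size is given. Probe sets of Thrsp, a lipogenic protein, differed: one read 6.02 there and 3.65 to 5.15 elsewhere, and another 6.39 there and 3.66 to 5.68 elsewhere. The Thrsp probe set with the highest mean read 5.15 there and 4.89 to 5.21 elsewhere. Cyp2e1, a cytochrome P450, read 6.42 there and 3.70 to 5.51 elsewhere, and Hp, for haptoglobin, 5.71 there and 4.21 to 4.83 elsewhere. Pon1 read 4.11 there and 2.86 to 3.28 elsewhere. These genes were chosen after their values were seen, in a single array, and carry no test.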
